A study of Mus musculus with 4 samples.

Results

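The genes described here are 41 heat shock proteins, chaperones and cochaperones, taken by symbol from a fixed list out of the 31053 genes in the deposited count matrices. They were sorted into 8 families by protein type and compartment. There were 8 cytosolic HSP70 and HSP110 genes, 7 HSP90 and cochaperone genes, 8 HSP40 genes of the cytosol and nucleus, 4 nucleotide exchange factors and adaptors of HSP70, 6 genes of the endoplasmic reticulum, 3 of the mitochondria, 3 small heat shock proteins and the 2 heat shock factors Hsf1 and Hsf2. The list names genes by function, and it was drawn up with earlier results of these data known.

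Brain vascular-associated cells were profiled by droplet single-cell RNA sequencing (10x Genomics 3′ chemistry, unique molecular identifiers or UMIs) to ask how chronic social stress alters their transcripts. In the chronic social defeat (CSD) group, each male wild-type C57BL/6 mouse lived for 14 days in the cage of an aggressive CD-1 mouse behind a perforated partition, which was taken out for 5 minutes a day. In the home cage (HC) group, each male wild-type C57BL/6 mouse also lived beside a CD-1 mouse for 14 days, with a partition that was never taken out. All mice were 12 to 14 weeks old. After removal of cerebellum, striatum, brainstem and olfactory bulbs, the tissue was dissociated mechanically and with collagenase II, and vascular cells were enriched with beads against CD31, an endothelial surface protein. The cells of 4 mice were pooled into each library, giving 2 libraries and 8 mice a group, and both groups went through bead capture and enzyme. The library was the replicate, so that a p-value measures the spread between pools of mice.

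Chaperones bind unfolded or partly folded proteins and release them in cycles that use ATP. HSP70 proteins take up clients that HSP40 (J domain) proteins deliver, exchange factors such as HSP110 and BAG proteins reset them, and HSP90 with its cochaperones finishes many kinases and steroid receptors, the glucocorticoid receptor among them. Small heat shock proteins hold unfolded clients without ATP. Hsf1 switches on the cytosolic set after heat, proteotoxic stress or tissue dissociation, whereas the unfolded protein response controls the endoplasmic reticulum set.

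Both control systems act through short promoter motifs. RefSeq windows of 250 bases before and 50 bases after the start (GRCm38.p6) were matched for 33 of the 41 members. No window was matched for Hspa8, Hspa9, Hspa13, Hsp90aa1, Hsp90ab1, Cryab, Hsf1 and St13, so their promoters were not searched. A 2-unit heat shock element, GAANNTTC or TTCNNGAA, was found in 14 of 33 members (42.4%) and in 17.0% of the promoters of all 27025 genes. The 3-unit form, in which GAA and TTC alternate with 2 free bases between units, was found in 5 members (15.2%), Chordc1, Dnajb6, Hspd1, Hspe1 and Hsph1, and in 0.662% of all promoters. All motifs were searched on both strands, and each 3-unit match also holds 2-unit matches. The endoplasmic reticulum stress element, CCAAT and CCACG with 9 free bases between them, was found in 3 members (9.09%), Dnajc3, Hsp90b1 and Hspa5, and in 0.137% of all promoters. CCAAT alone, which that element contains, was found in 18 members (54.5%) against 41.1% of all promoters. None of the 5 matched endoplasmic reticulum members held a heat shock element, and all 3 members with a stress element belonged to that family. A match describes letters and does not show that a factor binds.

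The 250 bases before the start are shown for 4 members on whose values the results below turn, 5′ to 3′ on the gene's strand, with the fixed letters of the matched motif in capitals (the heat shock element in the first 3, the endoplasmic reticulum stress element in Hspa5). Hspa1b (chr17:34959239-34959488, minus strand) and Hsph1 (chr5:149636337-149636586, minus strand) passed the CSD test in choroid plexus cells, and the 3-unit match of Hsph1 reaches beyond the bases shown. Hspe1 (chr1:55087898-55088147, plus strand) holds 2 overlapping 3-unit elements. It did not separate CSD from HC in endothelial cells. In choroid plexus cells both CSD libraries lay above both HC libraries for Hspe1, without a call. Hspa5 (chr2:34771840-34772089, plus strand) carries the endoplasmic reticulum stress element.
Hspa1b: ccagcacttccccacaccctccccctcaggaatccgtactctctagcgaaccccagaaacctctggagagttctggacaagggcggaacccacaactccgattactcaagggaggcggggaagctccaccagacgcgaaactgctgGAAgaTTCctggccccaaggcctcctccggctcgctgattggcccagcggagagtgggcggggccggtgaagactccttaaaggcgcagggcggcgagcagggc
Hsph1: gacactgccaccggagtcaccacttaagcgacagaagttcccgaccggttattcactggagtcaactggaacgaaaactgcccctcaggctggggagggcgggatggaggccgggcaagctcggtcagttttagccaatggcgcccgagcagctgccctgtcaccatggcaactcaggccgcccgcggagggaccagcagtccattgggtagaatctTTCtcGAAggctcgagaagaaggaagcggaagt
Hspe1: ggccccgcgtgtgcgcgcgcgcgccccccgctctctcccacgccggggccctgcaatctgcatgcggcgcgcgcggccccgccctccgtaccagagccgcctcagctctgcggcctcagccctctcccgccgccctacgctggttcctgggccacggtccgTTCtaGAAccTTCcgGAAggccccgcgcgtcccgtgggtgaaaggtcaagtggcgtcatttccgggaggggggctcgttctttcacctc
Hspa5: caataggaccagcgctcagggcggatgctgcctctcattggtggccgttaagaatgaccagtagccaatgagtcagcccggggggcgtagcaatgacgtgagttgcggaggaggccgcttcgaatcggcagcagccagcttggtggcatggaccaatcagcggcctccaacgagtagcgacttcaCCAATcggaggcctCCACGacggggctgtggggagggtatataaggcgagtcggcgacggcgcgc

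Hspa1a and Hspa1b, the stress-inducible HSP70 pair, lie side by side on chromosome 17, and their windows of 250 bases were identical at 247 positions. Of the 90-base windows of their transcripts, 49.3% of those of Hspa1a and 52.3% of those of Hspa1b also occurred in the other gene, but none did in the last 500 bases, where 3′ reads fall. Their counts are given singly and, where stated, as a sum. Hspd1 and Hspe1, which encode the mitochondrial chaperonin HSP60 and its lid HSP10, are read in opposite directions from starts 95 or 216 bases apart, depending on the Hspd1 transcript, and share their promoter.

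The 4 libraries held between 27297599 and 30361474 UMIs, of which 2553 to 4934 barcodes passed as cells, and any pair of libraries shared at most 9 cell barcodes. CSD 2 stood apart, with 32.6% of its UMIs in cells against 51.8% to 56.8% in the others and the highest median mitochondrial share (8.16%). Cells were put into classes by marker genes and summed per library. Endothelial cells (EC) numbered 941 to 1806 a library, microglia 665 to 1674 and choroid plexus cells 86 to 786, and 5 smaller classes had at least 10 cells in each library. Every marker of these 8 classes was at least 2-fold above the other cells. The same markers had assigned the cells, so this is no independent check of the classes. The astrocyte class was led by Fabp7 and Npy, which the paper lists as signature genes of an Npy+ cluster separate from its astrocytes. This class may therefore hold such cells, and values given for astrocytes are those of the gated class. The venous EC class was led by Lcn2, itself a gene called higher in CSD EC. Lcn2 is also 1 of the 7 markers of the venous gate, so this gate may take in different cells in CSD and HC. In sums of this kind, fewer expressing cells and less RNA per cell cannot be told apart. Levels are CPM, the UMIs of a gene scaled to the total of its class and library, divided by the TMM factor of that library. That factor was not applied in free RNA, in small classes and in barcodes that joined no class. CPM of different genes are not compared with each other.

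The members differed in the class where they were most abundant. When each class was compared with the mean of the other 7 (edgeR's quasi-likelihood test with library as a block, Benjamini-Hochberg adjustment over 8951 genes), 40 members were tested and the scarce Dnajb5 was filtered out. This fit used TMM factors computed across all classes, whereas the CPM use factors within each class, so the log2 differences and CPM can rank classes differently. Hspa8 and Hsp90ab1, for example, were called higher in choroid plexus cells although their mean CPM was lower there than in EC. In choroid plexus cells 25 members were higher, beside 38.9% of all genes, and 3 were lower, beside 22.1%. In ependymal cells 16 were higher and 2 lower, beside 20.8% and 13% of genes. EC had 11 higher and 17 lower members, beside 32.9% and 13.4% of genes. Microglia had 17 higher and 12 lower (39.4% and 17.8% of genes), arterial smooth muscle cells 9 and 12 (23.5% and 12.9%), pericytes 6 and 7 (15.6% and 9.14%), T cells 3 and 10 (10.2% and 19.1%) and astrocytes 2 and 17 (22.8% and 11.1%). The shares of higher members in microglia, pericytes and arterial smooth muscle cells lay near those of all genes.

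**Figure D1:**
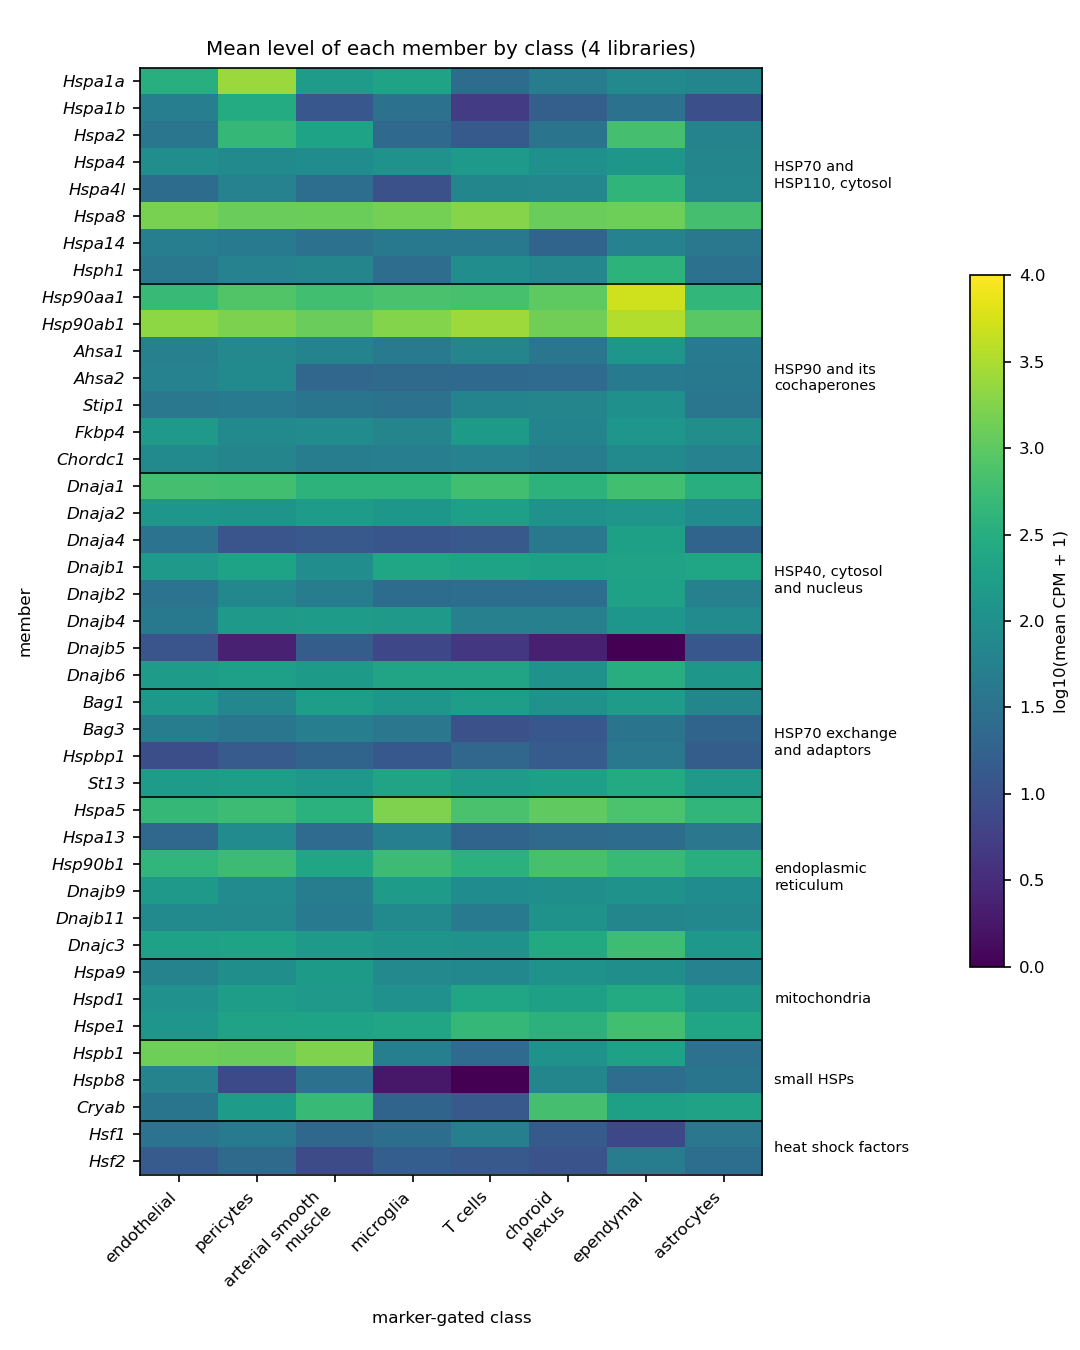
Mean CPM over the 4 libraries, on a log10 colour scale, of each of the 41 members (vertical, by family) in the 8 marker-gated classes (horizontal). Hspa1a and Hspa1b have their highest mean in pericytes, Hspb1 is high in EC, pericytes and arterial smooth muscle cells, and Hsp90aa1 is highest in ependymal cells (5145 CPM).

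Pericytes, which wrap capillaries, held the most Hspa1a. Its level there was 2468 ± 657 CPM (SD, n = 4 libraries), from 1622 in the lowest library to 3204 in the highest. It was 321 ± 108 CPM in EC, 203 ± 60.5 in microglia, 161 ± 44.2 in arterial smooth muscle cells, 49.2 ± 18.6 in choroid plexus cells and 25.2 ± 29.1 in T cells. No library of another tested class reached the pericyte range, whereas EC (176 to 407) and microglia (125 to 265) overlapped. The difference from the other classes on the log2 scale was 4.44 ± 0.16 (SE) in pericytes, 1.23 ± 0.18 in EC and 0.97 ± 0.19 in microglia, all called higher. Hspa1b likewise had its highest mean in pericytes, 293 ± 85.8 CPM, against 51.1 ± 14.0 in EC, with differences of 3.74 ± 0.23 and 1.11 ± 0.21. Outside the tested classes, border-associated macrophages, with 5 to 35 cells a library, held 219 Hspa1a UMIs. The sum of Hspa1a and Hspa1b there was 1697 and 2527 against 546 and 2002 CPM (CSD 1 and CSD 2 against HC 1 and HC 2), so that 2 of the 4 libraries lay within the range of that sum in pericytes (1992 to 3499).

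Among small heat shock proteins, Hspb1 was highest, of the tested classes, in cells of the vessel wall. Hspb1 (HSP27), which binds actin and keeps clients from aggregating, was at 1695 ± 291 CPM in arterial smooth muscle cells, 1312 ± 274 in EC and 1237 ± 297 in pericytes. These 3 classes overlapped with each other and with no other tested class, and were higher by 3.61 ± 0.15, 2.95 ± 0.15 and 2.64 ± 0.18 log2. Fibroblasts, which were not tested, held a similar level, 1657 CPM pooled over libraries. In microglia Hspb1 was at 52.1 ± 21.0 CPM, in every library below its level in free RNA, the UMIs of barcodes with at most 100 UMIs. How much of this value came from free RNA was not tested. Among the tested classes, Cryab (αB-crystallin), a chaperone of lens, muscle and glia, was instead at 656 ± 53.4 CPM in choroid plexus cells. It was at 521 ± 57.1 in arterial smooth muscle cells, and these classes were 3.82 ± 0.15 and 2.74 ± 0.18 log2 above the others. Outside the tested classes, Cryab reached 4305 CPM in oligodendrocytes, pooled over libraries (491 of 114053 UMIs). In EC (34.4 ± 16.1) and microglia (18.4 ± 7.03) it was below its free-RNA level, 279 and 175 against 284 and 353 CPM in CSD 1 and CSD 2 against HC 1 and HC 2, in all 4 libraries.

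Hspa5 in the endoplasmic reticulum and the cytosolic Hsp90aa1 and Hsph1 had different leading classes. Hspa5 (BiP), the HSP70 of the endoplasmic reticulum, was at 1702 ± 581 CPM in microglia and 1049 ± 238 in choroid plexus cells, with overlapping ranges, and both were higher (1.84 ± 0.13 and 1.61 ± 0.13 log2). Of the tested classes, it was lowest in arterial smooth muscle cells, at 356 ± 97.5 CPM. Ciliated ependymal cells had the highest means of Hsp90aa1 and Hsph1, though not of every cytosolic member. Hsp90aa1, the inducible HSP90, was at 5145 ± 209.8 CPM there, 2.66 ± 0.12 log2 above the others, against 1015 ± 107 in choroid plexus cells, 522 ± 228 in EC and 439 ± 89.4 in astrocytes. Hsph1 (HSP110), an exchange factor that helps HSP70 release clients, was at 389 ± 96.5 CPM in ependymal cells, 2.57 ± 0.21 log2 above the others. The ependymal libraries, of 14 to 37 cells each, did not overlap any other tested class for either gene.

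The mitochondrial chaperonin pair was called alike in ependymal cells, choroid plexus cells and EC, but not in every class. Hspe1 was at 606 ± 111 CPM in ependymal cells, 374 ± 59.7 in choroid plexus cells and 124 ± 19.3 in EC. Hspd1 was at 281 ± 107, 185 ± 28.2 and 103 ± 26.4 CPM. In choroid plexus cells both were called higher, Hspe1 by 1.33 ± 0.11 and Hspd1 by 1.08 ± 0.097 log2. In EC both were called lower, with log2 differences of -1.41 ± 0.13 and -0.84 ± 0.11. In microglia only Hspd1 was called, lower at -0.40 ± 0.11 log2, whereas only Hspe1 was called in T cells (higher), pericytes and arterial smooth muscle cells (both lower). The EC level of Hspe1 was also below its free-RNA level in every library.

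The constitutive members were present in every tested class. Hspa8, which folds new proteins in unstressed cells, ranged in mean from 658 ± 158 CPM in astrocytes to 1893 ± 591 in T cells, and Hsp90ab1, the constitutive HSP90, from 948 ± 83.7 in astrocytes to 3489.7 ± 675 in ependymal cells. Among the tested classes, Dnajb1, the HSP40 partner of inducible HSP70, had its highest mean in the astrocyte class (225 CPM, not called). Its lowest was in arterial smooth muscle cells (89.9 ± 14.6 CPM). Outside the tested classes, Dnajb1 reached 421 CPM in oligodendrocytes (48 UMIs) and 329 in fibroblasts (49 UMIs), pooled over libraries. It was called higher in choroid plexus cells, at 184 ± 36.3 CPM, and in microglia. In arterial smooth muscle cells and EC it was called lower. Among the tested classes, Bag3, which links HSP70 and small heat shock proteins to autophagy, was highest in arterial smooth muscle cells, at 50.3 ± 8.16 CPM. EC, at 47.6 ± 6.63, lay inside the same range. In fibroblasts, which were not tested, Bag3 was at 114 CPM pooled over libraries (17 UMIs).

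Among EC subclasses, 34 members were tested and few differed. Arterial EC had 2 higher members and 1 lower, beside 7.74% and 6.44% of genes, venous EC had 2 higher, beside 3.76%, and capillary EC had 1 each way, beside 4.91% and 3.94%. Hspa1a was 0.89 ± 0.16 log2 above the other subclasses in arterial EC, at 498 ± 188 CPM, and Hspa8 was 0.42 ± 0.12 above in venous EC, at 2053 ± 716 CPM. Hspb8, a small heat shock protein that works with Bag3 and was singled out after its values were seen, was at 137 ± 80.1 CPM in venous EC and 39.3 ± 14.5 in arterial EC, with log2 differences of 1.65 ± 0.36 and -1.12 ± 0.30. Venous EC numbered 18 to 34 cells a library.

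CSD was compared with HC in each class by the same test without the block. In choroid plexus cells 2 of 41 members, Hspa1b and Hsph1, rose, beside 0.0887% of 11278 genes. No member passed an adjusted p of 0.05 in EC (smallest 0.229), where 0.0585% of 10254 genes did, or in microglia, where 0% of 10029 did. At an unadjusted p under 0.05, edgeR had 15 members higher and none lower in EC (5.17% and 2.48% of genes), 4 higher and 1 lower in microglia (0.558% and 0.688%), and 12 higher and none lower in choroid plexus cells (1.99% and 1.22%). DESeq2 called 2 members in EC (Hspa8 and Dnaja1, beside 1.46% of genes), none in microglia (0.00997%) and 1 in choroid plexus cells (0.0443%).

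Most members had higher values in CSD without passing the test. In EC 34 of 41 had a log2 fold change above 0, beside 50.7% of genes, and in 19 both CSD libraries lay above both HC libraries, beside 20.2% of genes. In 3 members both lay below, beside 17.9%. On CPM without the TMM factors these counts were 18 and 4, beside 14.4% and 24.9% of genes. Choroid plexus cells had 32 of 41 above 0 (49.6% of genes), 20 with both CSD libraries above (14.2%) and 1 with both below (14.7%). Microglia had 28 of 40 above 0 (50.3%), 9 above (10.4%) and 2 below (11.9%), or 8 and 2 without the TMM factors (7.81% and 14%). The median log2 fold change over the members was 0.31 in EC, 0.18 in choroid plexus cells and 0.13 in microglia, and 0.0047 over all genes in EC. The members share libraries and cells and are not independent of each other.

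**Figure D2:**
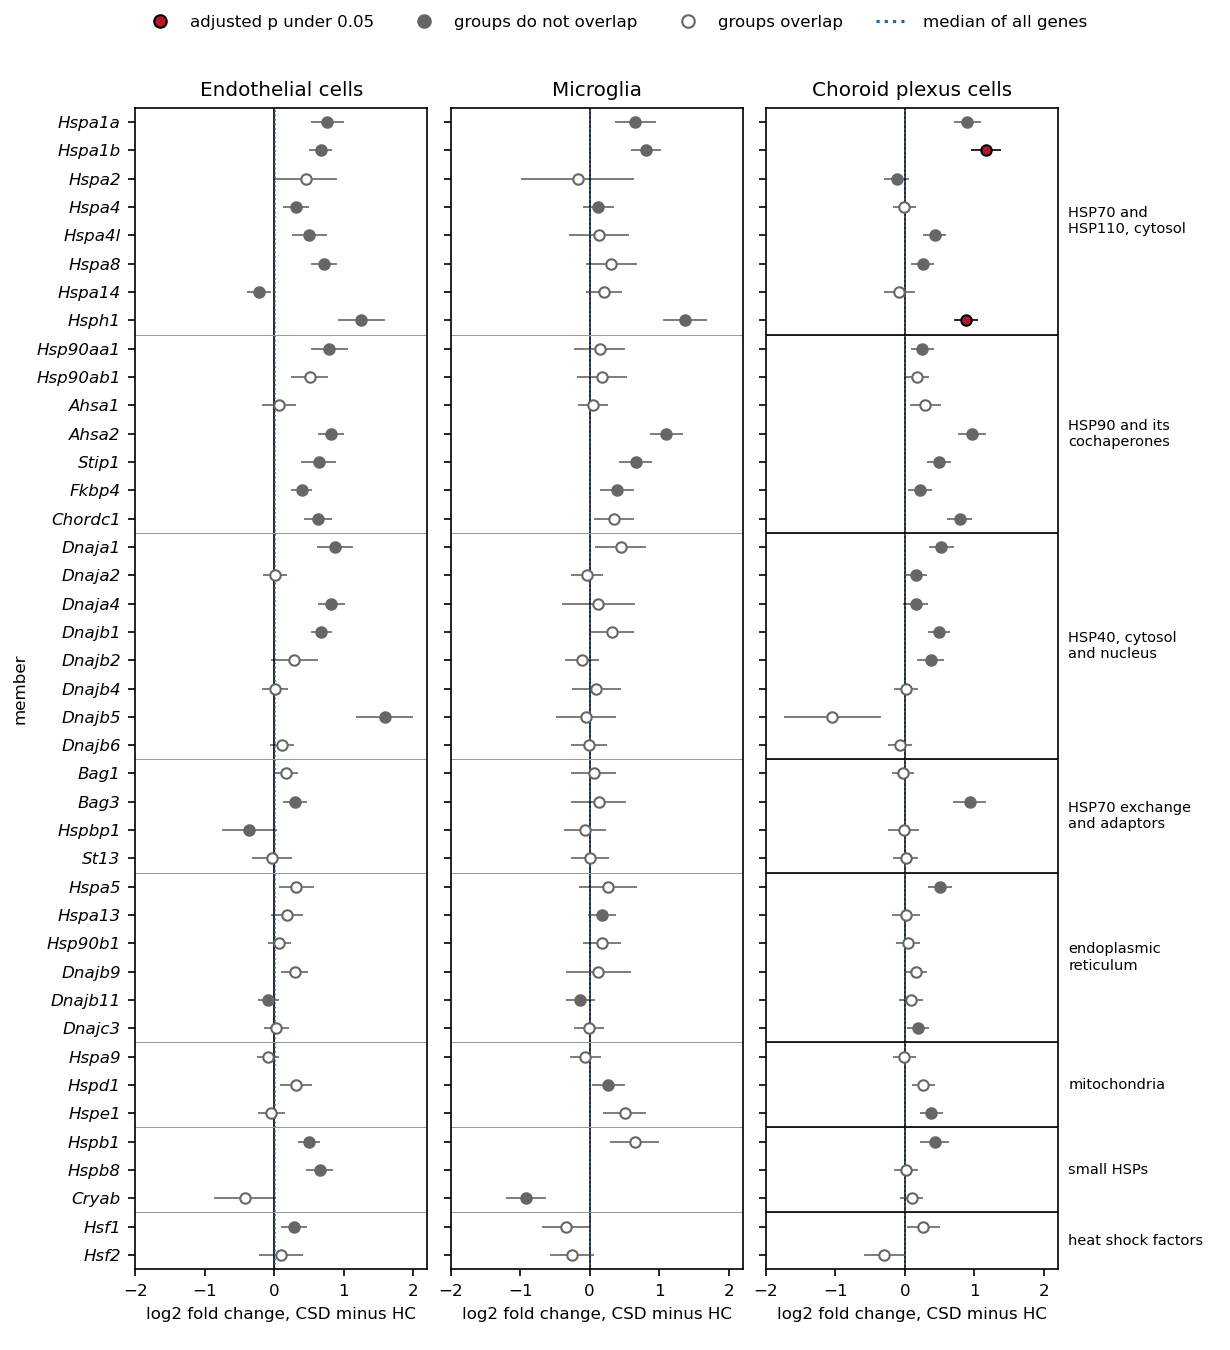
Log2 fold change, CSD minus HC, with its SE for each member (vertical, by family) in EC, microglia and choroid plexus cells, with filled points where the groups did not overlap and a dotted line at the median of all genes. Most points lie above 0 in EC (34 of 41) and choroid plexus cells (32 of 41), and only Hspa1b and Hsph1 in choroid plexus cells carry the mark for an adjusted p under 0.05.

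By family, the members whose EC libraries separated the groups were mostly cytosolic. Both CSD libraries lay above both HC libraries in 6 of 8 HSP70 and HSP110 genes (median log2 fold change 0.59), 5 of 7 HSP90 and cochaperone genes (0.63), 4 of 8 HSP40 genes (0.48) and 2 of 3 small heat shock proteins (0.50). They did so in 0 of 6 endoplasmic reticulum genes (0.13), 0 of 3 mitochondrial genes (-0.042), 1 of 4 exchange factors and adaptors (0.070) and 1 of 2 heat shock factors (0.19). The share over all genes in EC was 20.2%, and the difference between families was not tested. In choroid plexus cells the counts were 5, 5 and 5 in the HSP70, HSP90 and HSP40 families, 2 in the endoplasmic reticulum and 1 in the mitochondria, beside 14.2% of genes. In microglia they were 4, 3 and 0 in the 3 cytosolic families, 1 in the endoplasmic reticulum and 1 in the mitochondria, beside 10.4% of genes.

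Among the HSP70 genes of EC, Hspa1a was at 407 and 401 against 176 and 298 CPM (CSD 1 and CSD 2 against HC 1 and HC 2, as in all values given this way), a log2 fold change of 0.77 ± 0.24 (adjusted p = 0.451, edgeR's quasi-likelihood test). Both CSD libraries were alike and above both HC libraries, which differed from each other. Hspa1b was at 67.3 and 58.4 against 39.4 and 39.4 CPM (0.67 ± 0.16, adjusted p = 0.291), and the mean of the summed pair was 1.69-fold that of HC. Hspa8 was at 2273 and 1676 against 1189 and 1219 CPM (0.71 ± 0.19, adjusted p = 0.333). Hsph1 was at 74.3 and 36.3 against 20.5 and 25.7 CPM (1.25 ± 0.34, adjusted p = 0.356). The groups did not overlap for Hspa8 and Hsph1, and CSD 1 lay well above CSD 2. Hspa4 and Hspa4l, relatives of Hsph1, also had both CSD libraries above, although Hspa4l was below its free-RNA level in every library. Hspa14, an HSP70 of the ribosome, had both below (-0.22 ± 0.17), and Hspa2 overlapped.

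In the HSP90 family of EC, Hsp90aa1 was at 857 and 465 against 401 and 363 CPM (0.79 ± 0.27, adjusted p = 0.516), with CSD 1 far above the rest. Hsp90ab1 was at 3132 and 1737 against 1622 and 1795 CPM (0.51 ± 0.26), so that CSD 2 lay inside the HC range. Of the cochaperones, which were singled out after their values were seen, Ahsa2, a relative of the HSP90 ATPase activator Ahsa1, was at 83.3 and 63.4 against 39.9 and 43.2 CPM (0.81 ± 0.18, adjusted p = 0.250). Both CSD libraries lay above HC for it, as for Stip1 (HOP), which bridges HSP70 and HSP90 (0.64 ± 0.25), for the HSP90 partner Chordc1 (0.63 ± 0.20) and for Fkbp4 (FKBP52), an immunophilin of steroid receptor complexes (0.39 ± 0.15). Ahsa1 itself overlapped, at 70.8 and 40.9 against 51.4 and 54.6 CPM.

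Among the HSP40 genes of EC, Dnajb1 was at 175 and 168 against 112 and 103 CPM (0.68 ± 0.15, adjusted p = 0.229), and the groups were further apart than the libraries within either. Dnaja1, a partner of Hspa8, was at 1095 and 618 against 439 and 493 CPM (0.88 ± 0.26), again with CSD 1 highest. Dnaja4 (0.82 ± 0.19) and the scarce Dnajb5, at 12.5 and 18.4 against 6.49 and 3.80 CPM (1.59 ± 0.42), also had both CSD libraries above HC, and these 3 were singled out after their values were seen. Dnaja2, Dnajb2, Dnajb4 and Dnajb6 overlapped.

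In the other families of EC, Hspb1 was at 1555 and 1519 against 984 and 1189 CPM (0.50 ± 0.16, adjusted p = 0.495) and Hspb8 at 86.3 and 63.0 against 49.4 and 45.1 (0.66 ± 0.19), both with the CSD libraries above. Bag3 was at 55.2 and 49.6 against 45.9 and 39.4 CPM (0.30 ± 0.17), without overlap but with a small gap. Cryab, below its free-RNA level, overlapped at 42.7 and 16.5 against 25.9 and 52.3 CPM. Among organelle members, Hspa5 was at 626 and 383 against 465 and 346 CPM, Hspd1 at 143 and 86.4 against 90.8 and 92.6 and Hspe1 at 145 and 99.3 against 119 and 132. For each of them CSD 1 was the highest library and CSD 2 lay within or below the HC range. The other endoplasmic reticulum and mitochondrial members, the adaptors Bag1 and St13 and Hsf2 overlapped, except for Dnajb11 and, among the adaptors, Hspbp1, which had both CSD libraries below, and Hsf1 had both above. The EC level of Hspbp1 was below its free-RNA level in every library.

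**Figure D3:**
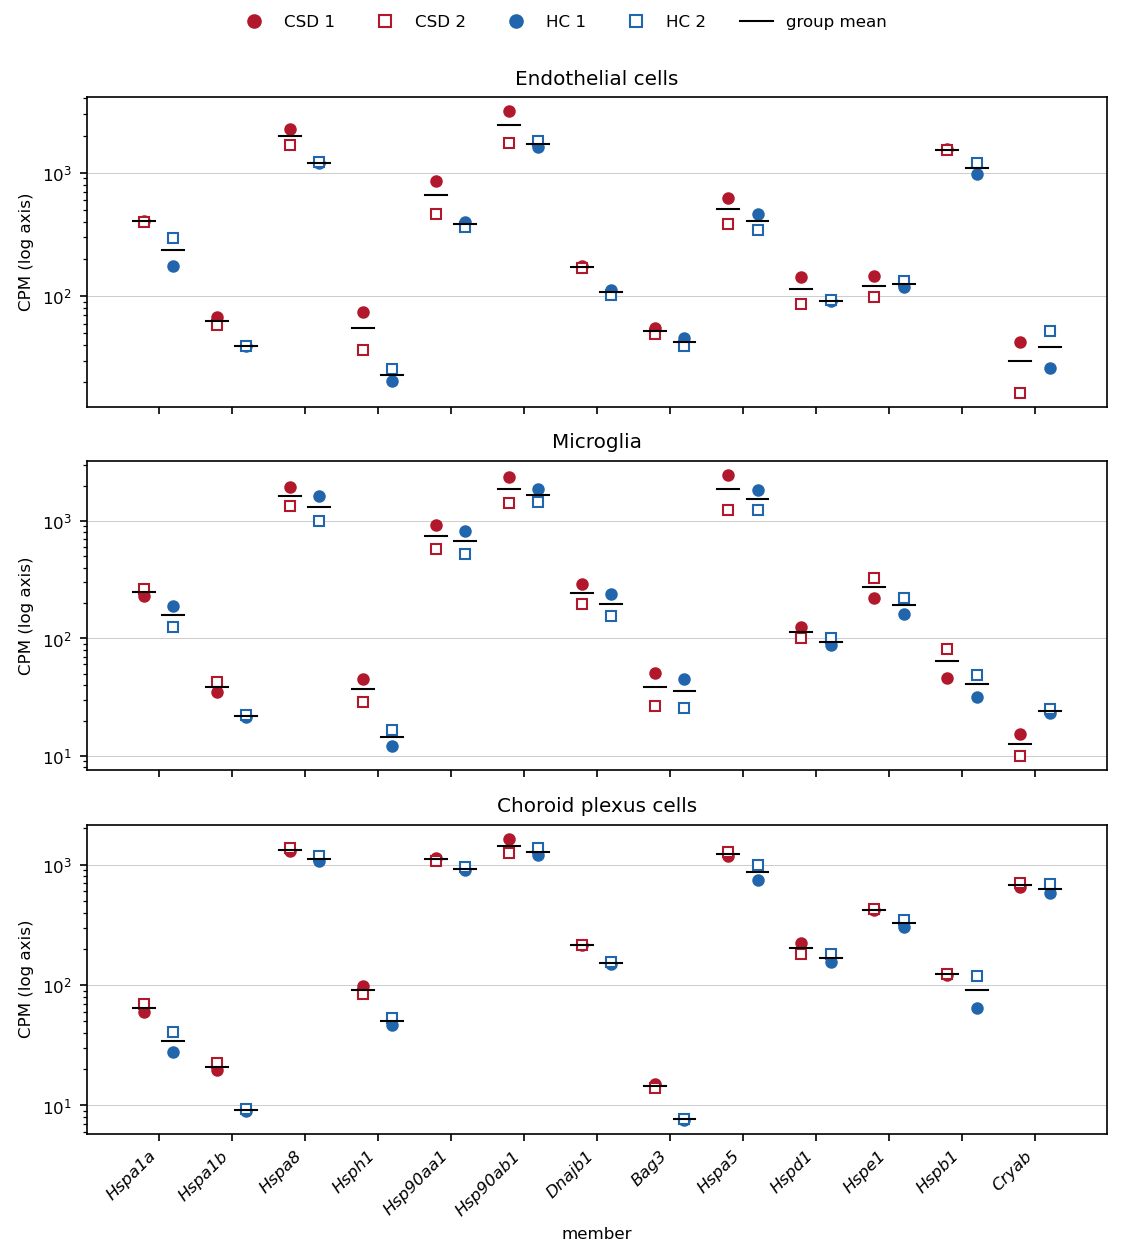
CPM on a log axis of 13 members in EC, microglia and choroid plexus cells, with 1 point for each of the 2 CSD and 2 HC libraries and a line at each group mean. Hspa1b and Hsph1 separate the groups in choroid plexus cells, CSD 1 lies above the other 3 libraries for many members in EC, and CSD 1 and HC 1 lie highest for several members in microglia.

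Part of the EC result rested on the library CSD 1. Without it, 22 members had a log2 fold change above 0 instead of 34. The log2 fold change was then 0.29 for Hsp90aa1, 0.66 for Hsph1, 0.48 for Hspa8, 0.41 for Dnaja1 and 0.027 for Hsp90ab1, and Hspa5 and Hspd1 turned to -0.077 and -0.083. Values for Hspa1a (0.76), Hspa1b (0.57), Dnajb1 (0.65) and Hspb1 (0.49) moved little without CSD 1, but that for Hspa1a was 0.44 without HC 1 and 1.20 without HC 2. Leaving out a CSD library leaves 1, which is then assumed to vary like the HC libraries. On that assumption 4 members passed the threshold without CSD 1 (Hspa1a, Dnajb1 and Dnajb5 higher, Cryab lower), beside 3.93% of genes, and 16 did without CSD 2, beside 2.72%, so that calls over all genes were also more frequent than with 4 libraries.

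Genes that dissociation induces lay in EC in the same direction as the cytosolic chaperones. Of 20 immediate-early and dissociation genes, 20 had a log2 fold change above 0 (median 0.58), beside 50.7% of all genes. In 16 both CSD libraries lay above both HC libraries, beside 20.2% of all genes, although none was called. The 20 genes summed to 26429 and 30151 against 18948 and 20134 CPM. Nfkbia, an inhibitor of NF-κB that was singled out after its values were seen, was at 2219 and 2178 against 1255 and 1142 (0.87 ± 0.16). In capillary and arterial EC all 20 were also above 0 (medians 0.59 and 0.41), beside 48.1% and 48.7% of genes. In venous EC 9 of 19 tested were above 0 (median -0.11), beside 49.7% of genes. The list summed there to 34157 and 20909 against 29382 and 23762 CPM and overlapped. Oligodendrocyte markers in EC summed to 1489.9 and 1209 against 807 and 803 CPM, neutrophil and monocyte markers to 109 and 6.44 against 5.49 and 3.33, and those of oligodendrocyte precursors to 36.1 and 38.6 against 15.5 and 30.9, while the lists of 11 other cell types overlapped. The median mitochondrial share of EC was 7.15% and 8.71% in CSD and 7.94% and 6.17% in HC. The part of dissociation or admixed cells in the chaperone values was not tested.

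In microglia, the resident macrophages of the brain, several of the named members followed an order that crossed the groups. Hspa5 was at 2468 and 1251 against 1837 and 1251 CPM, Hspa8 at 1937 and 1339 against 1638 and 997, Hsp90aa1 at 925 and 573 against 825 and 528 and Hsp90ab1 at 2359 and 1425 against 1877 and 1459. Dnajb1 was at 291 and 197 against 238 and 154 CPM and Bag3 at 50.8 and 26.5 against 45.4 and 25.4. For all 6, CSD 1 and HC 1 lay above CSD 2 and HC 2, and the groups overlapped.

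A few microglial members separated by condition, none past the threshold. Hspa1a was at 232 and 265 against 189.8 and 125 CPM (0.66 ± 0.29) and Hspa1b at 34.9 and 42.3 against 21.3 and 22.5 (0.81 ± 0.22), with both CSD libraries above and a summed mean 1.60-fold that of HC. Hsph1 was at 45.5 and 28.7 against 12.2 and 16.6 CPM (1.37 ± 0.32, adjusted p = 1.0 by edgeR's quasi-likelihood test). These levels of Hsph1 were below its free-RNA level, 54.5 and 43.1 against 44.4 and 49.7 CPM, in every library. Ahsa2, at 34.9 and 28.3 against 14.9 and 14.6 CPM (1.10 ± 0.24), and Stip1 (0.66 ± 0.23) had both CSD libraries above as well, and were singled out after their values were seen. Hspd1, at 125 and 101 against 87.7 and 100.2 CPM, barely separated, and Hspe1 (221 and 328 against 163 and 223) and Hspb1 (45.8 and 81.7 against 32.0 and 49.1) overlapped. Cryab was lower in both CSD libraries, at 15.3 and 9.93 against 23.3 and 24.96 CPM (-0.92 ± 0.29). Hspb8, with at most 3 UMIs a library, was not tested. Without CSD 1, 18 members had a log2 fold change above 0 instead of 28. Of the 20 immediate-early genes, 1 had both CSD libraries above (median 0.12), beside 10.4% of all genes. The list summed to 38252 and 38396 against 37479 and 34168 CPM.

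Choroid plexus cells, the epithelium that secretes cerebrospinal fluid, held both members past the threshold. Hspa1b was at 19.6 and 22.4 against 9.06 and 9.34 CPM, a log2 fold change of 1.17 ± 0.22 (adjusted p = 0.0313, edgeR's quasi-likelihood test with Benjamini-Hochberg adjustment). Hsph1 was at 97.9 and 83.7 against 46.9 and 52.8 CPM, a log2 fold change of 0.88 ± 0.17 (adjusted p = 0.0335). For both, the gap between the groups was wider than the spread within either. Both calls were lost without HC 1 (adjusted p = 0.370 and 0.713) and that of Hsph1 without CSD 1 (0.137), whereas 4 members were called without CSD 2 (0.237% of genes) and 5 without HC 2 (0.36%), each with 1 library left in a group. The levels of Hspa1b were below its free-RNA level, 23.0 and 23.4 against 15.4 and 17.6 CPM, in every library, and that free RNA itself was higher in both CSD libraries. For Hsph1 the choroid plexus level was above the free-RNA level, 54.5 and 43.1 against 44.4 and 49.7 CPM, in every library, but only narrowly in both HC libraries. The free RNA of Hsph1 overlapped between the groups.

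Other cytosolic members of choroid plexus cells lay in the same direction without a call. Hspa1a, below its free-RNA level, was at 59.2 and 69.3 against 27.8 and 40.4 CPM (0.90 ± 0.19, adjusted p = 0.0886). Dnajb1 was at 215 and 215 against 149 and 156 CPM (0.50 ± 0.16) and Bag3 at 15.1 and 14.0 against 7.61 and 7.77 (0.93 ± 0.24), both with a gap wider than the spread within groups. Hspa8 (1289 and 1377 against 1063 and 1171) and Hsp90aa1 (1139 and 1069 against 905 and 948) separated by less, with log2 fold changes of 0.25 ± 0.17 and 0.25 ± 0.17, and Hsp90ab1 (1644 and 1238 against 1192 and 1373) overlapped. Ahsa2 (0.97 ± 0.20), Chordc1 (0.79 ± 0.18), Stip1 (0.49 ± 0.17) and Dnaja1 (0.52 ± 0.18), singled out after their values were seen, had both CSD libraries above.

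Some organelle members also separated the groups here. Hspa5 was at 1182 and 1281 against 741 and 992 CPM (0.51 ± 0.18) and Hspe1 at 418 and 429 against 303 and 347 (0.38 ± 0.16), with both CSD libraries above, while Hspd1 (224 and 179.9 against 156 and 181) overlapped. Hspb1, at 121 and 125 against 64.0 and 118 CPM, separated by a small gap and was below its free-RNA level, and Cryab (653 and 705 against 583 and 684) and Hspb8 overlapped. In these cells the immediate-early list summed to 3593 and 5928 against 3831 and 4738 CPM and overlapped. Of its 20 genes, 0 lay above HC in both CSD libraries, beside 14.2% of all genes. Among marker lists of other cell types, those of fibroblasts (42.5 and 47.8 against 28.1 and 39.2 CPM), oligodendrocyte precursors (19.9 and 23.9 against 14.1 and 14.2) and border-associated macrophages (2.89 and 2.99 against 2.54 and 0.971) were higher in both CSD libraries. Those of EC (120.3 and 128 against 142 and 155 CPM), arterial smooth muscle cells, oligodendrocytes, T cells and B cells were lower in both, and the others overlapped. Their part in the chaperone values was not tested. CSD 2 held only 86 choroid plexus cells, against 353 to 786 in the other libraries.

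The difference of the CSD effect between classes was tested as an interaction. None of the 41 members was called for microglia against EC or choroid plexus cells against EC (smallest adjusted p 1.0 and 0.979 by edgeR's quasi-likelihood test, 0% of genes called in either). At an unadjusted p under 0.05, 1 and 4 members differed, beside 2.88% and 4.95% of genes. DESeq2 called none of the members, and its share of all genes was not counted. The 4 for choroid plexus cells, named after their values were seen, were Dnaja4 (-0.64), Dnajb5 (-2.46) and Hspb8 (-0.63), with smaller log2 fold changes there, and Bag3 (0.64), with a larger one.

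The remaining classes had fewer cells, and no member was called in them. At an unadjusted p under 0.05 edgeR had 1 member higher and 1 lower in pericytes (2.72% and 2% of genes). It had 3 higher in arterial smooth muscle cells (1.25%), 1 in astrocytes (2.02%), 5 in ependymal cells (2.43%) and 1 in T cells (2.95%), and none lower there (1.33%, 1.4%, 1.06% and 3.85%). DESeq2 called no member, and its share of all genes in these classes was not counted. Both CSD libraries lay above both HC libraries in 9 of 30 tested members in pericytes (17.1% of genes), 10 of 35 in arterial smooth muscle cells (15.1%), 11 of 28 in ependymal cells (14%), 5 of 20 in astrocytes (13.7%) and 4 of 14 in T cells (17.3%). They lay below in 5 members in pericytes (18.7%), 1 in arterial smooth muscle cells (14.8%), 2 in ependymal cells (15.1%) and none in astrocytes (12.6%) or T cells (17.4%). Without the TMM factors the count above in T cells was 1 (12.4%), and pericytes had 8 above and 6 below (15.3% and 20.9%). Hspa8 was at 1545 and 1332 against 801 and 1208 CPM in pericytes, 1613 and 1391 against 1009 and 1087 in arterial smooth muscle cells, 1488 and 1489 against 1052 and 1198 in ependymal cells and 2663 and 2009 against 1298 and 1600.4 in T cells, in each with CSD above. Hsph1 separated the same way in all 5 classes in which it was tested, with log2 fold changes of 0.59 to 1.37. Microglia, where it was below its free-RNA level, are among them. Stip1, singled out after its values were seen, separated likewise in its 5 tested classes, with 0.49 to 0.87. The mitochondrial Hspe1 had both CSD libraries above in 6 of 8 classes, as many as Hspa8, but not in EC or microglia. St13 and Hspa9 overlapped in every class in which they were tested, and the classes share the 4 libraries. The share of all genes that separate in as many classes was not counted, so these counts are not read as a trait of the members. A member can also pass the filter on low counts through either group alone, so the set tested in small classes can favour members that differ.

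**Figure D4:**
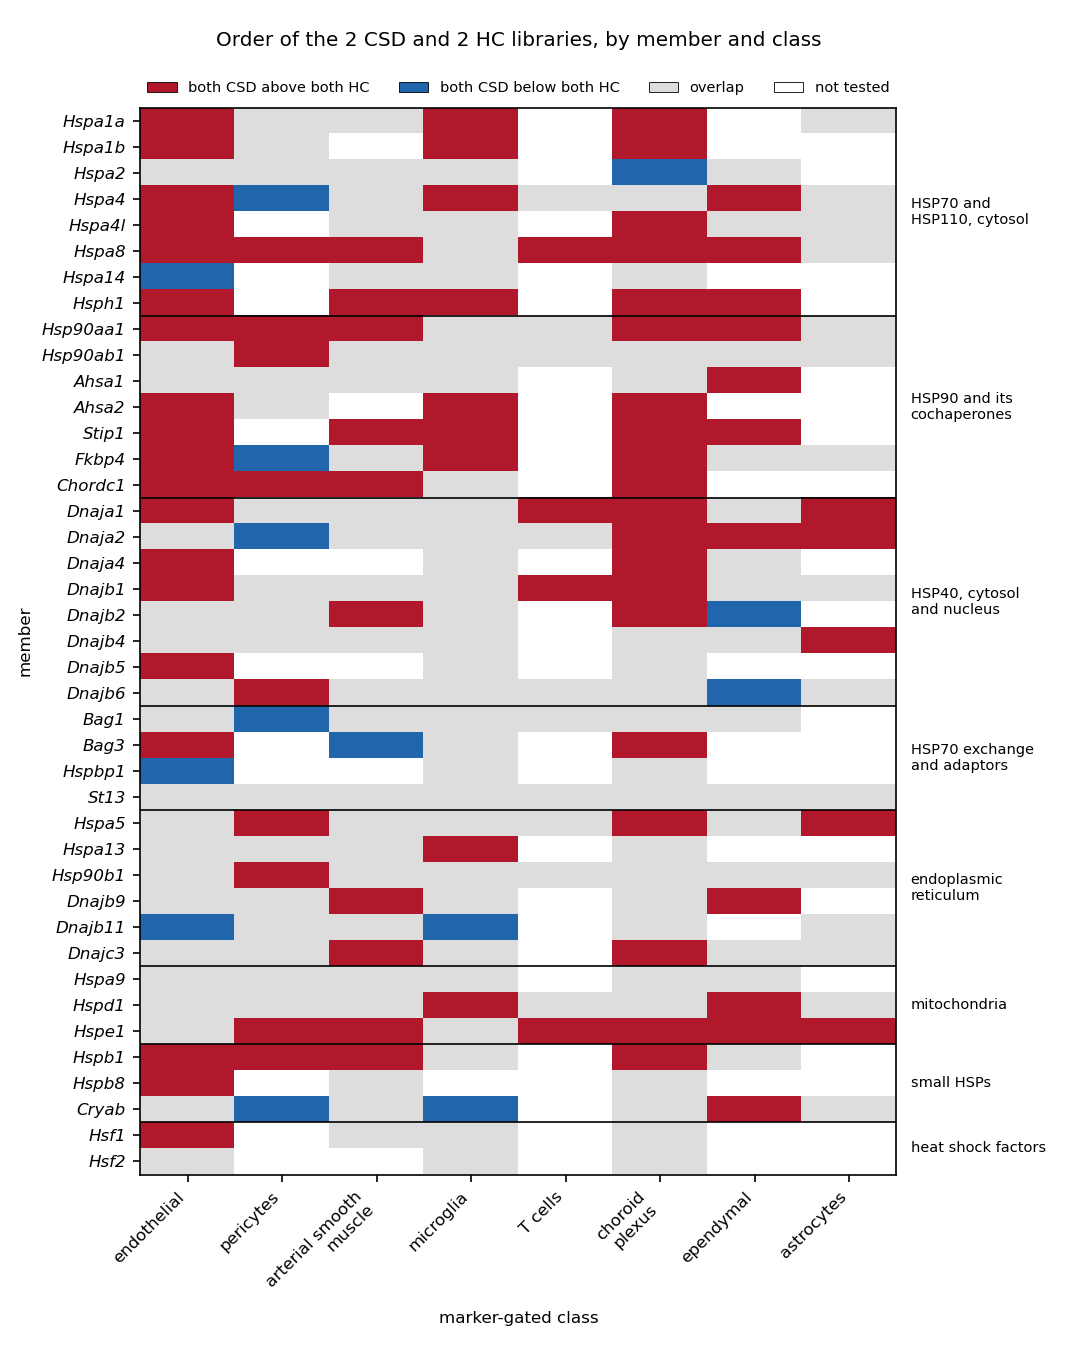
Order of the 2 CSD and 2 HC libraries for each member (vertical) in each class (horizontal), coloured where both CSD libraries lay above both HC libraries, where both lay below, where the groups overlapped or where the member was not tested. Hsph1 and Stip1 have both CSD libraries above in 5 of 5 tested classes, and Hspa8 and the mitochondrial Hspe1 each in 6 of 8. The share of all genes that separate in as many classes was not counted.

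Most tested members also had higher values in CSD in the EC subclasses. Capillary EC, which make up most EC, had 19 of 41 members above HC in both CSD libraries, beside 18.8% of genes, and 33 with a log2 fold change above 0, beside 48.1%. Arterial EC had 13 of 30 above in both, beside 17%, and 22 above 0, beside 48.7%, and venous EC 7 of 10, beside 22.3%, and 9 above 0, beside 49.7%. None was called by edgeR, where 0.0756%, 0.024% and 0% of genes were. At an unadjusted p under 0.05 it had 15, 3 and 5 members higher, beside 4.94%, 2.88% and 6.15% of genes, and none lower, beside 3.15%, 1.92% and 2.29%. DESeq2 called 2, 0 and 0 members, and its share of all genes in the subclasses was not counted. Hspa1a was at 356 and 408 against 149 and 241 CPM in capillary EC (0.96 ± 0.22), and overlapped in arterial EC. In venous EC only 10 of 41 members passed the filter on low counts. A member can pass that filter through either group alone, so the venous counts are not read as a trait of the members. In arterial EC 2 of 7 HSP70 and HSP110 genes and 2 of 3 mitochondrial genes had both CSD libraries above, unlike EC as a whole. These cells are the EC already described and add no independent libraries. The venous gate includes Lcn2, a gene called higher in CSD EC, and its part in the venous values was not tested.

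Summed over all 41 members, CSD 1 was the highest library in every class. The sum was 13417 and 9492 against 7913 and 8346 CPM in EC, 10309 and 9614 against 7825 and 8918 in choroid plexus cells and 11961 and 8195 against 9662 and 7502 in microglia, and 15250.4 and 13229 against 10001 and 11924 in pericytes. Both CSD libraries were above both HC libraries in these classes except microglia. The immediate-early list had CSD 2 above CSD 1 in EC, in pericytes (18186 and 25018 against 14519 and 23366 CPM), in choroid plexus cells, arterial smooth muscle cells and T cells and, narrowly, in microglia. CSD 1 was its highest library in astrocytes (10296 and 9334 against 5651 and 8218 CPM) and ependymal cells (21846 and 20850.3 against 16835 and 16115).

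**Figure D5:**
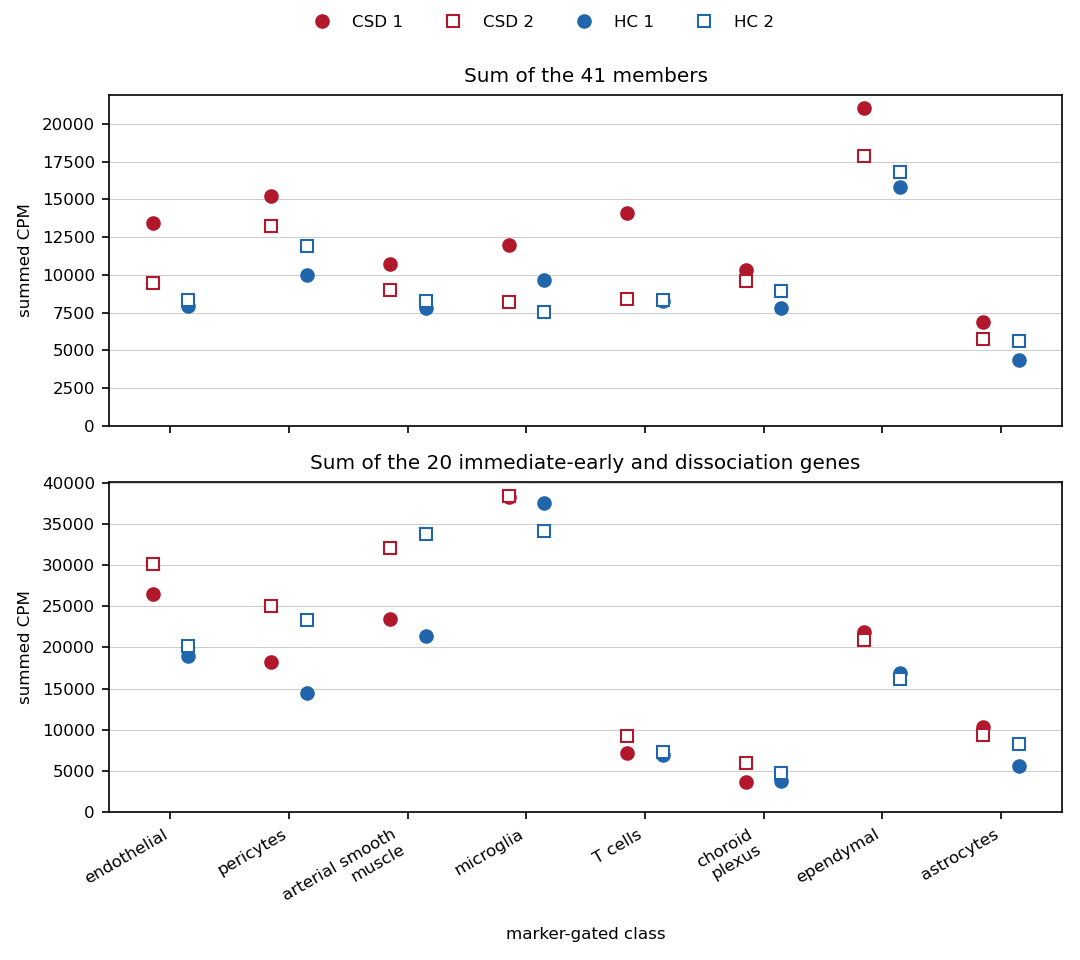
Summed CPM of the 41 members (upper panel) and of 20 immediate-early and dissociation genes (lower panel) in each library and class, with 1 point a library. The member sum is highest in CSD 1 in every class (13417 CPM in EC), whereas the immediate-early sum in EC is highest in CSD 2 (30151 CPM).

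Other proteostasis genes had medians nearer 0 in EC. In EC 16 of 23 endoplasmic reticulum folding and unfolded protein response genes, 10 of 13 TRiC chaperonin and prefoldin genes, 10 of 16 other cochaperones, 4 of 10 mitochondrial proteostasis genes and 7 of 30 ubiquitin and proteasome genes had a log2 fold change above 0, with medians of 0.11, 0.082, 0.018, -0.071 and -0.077. Of all genes in EC, 50.7% were above 0. Both CSD libraries lay above both HC libraries in 8, 3, 2, 2 and 1 genes of these lists and below in 2, 2, 2, 2 and 8, beside 20.2% and 17.9% of all genes. Without the TMM factors these counts were 4, 0, 2, 0 and 1 above and 5, 2, 4, 5 and 15 below, beside 14.4% and 24.9%. In microglia all 13 TRiC and prefoldin genes tested were above 0 (median 0.15), and 7 had both CSD libraries above. The shares over all genes in microglia were 50.3% and 10.4%. In choroid plexus cells 18 of 22 endoplasmic reticulum genes were above 0 (median 0.17) and 8 had both above, beside 49.6% and 14.2% of genes. No gene of these lists was called in any class.

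Free RNA overlapped between the groups for most members. In barcodes with at most 100 UMIs, 5 of 41 members were higher in both CSD libraries and 7 lower, beside 14.1% and 23% of 11570 genes. Hspa1a, at 83.6 and 99.1 against 49.2 and 60.3 CPM, was 1 of the 5. The EC levels of 24 members were above free RNA in all 4 libraries and those of 5 were below, and the counts were 23 and 9 in microglia and 28 and 7 in choroid plexus cells.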

How the data were processed

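The authors deposited, for each of the 4 libraries, the UMI count of every gene and barcode with no cell calling, made with Cell Ranger 4.0 on GRCm38 (mm10) per the submitters' processing notes. From these counts, barcodes with at least 500 UMIs, at least 250 genes and at most 25% mitochondrial UMIs were kept as cells. A cell joined the class with the most distinct markers detected if there were at least 3 and 1.5 times those of the next class (EC subclasses: at least 2). This also leaves out barcodes that carry the markers of 2 classes. Scrublet (scanpy 1.11.5), at an expected rate of 6%, marked 0.0981% to 1.48% of cells a library, and these were kept and left out only as an alternative. The limits of the gate were set after the number of cells per gate was seen. Members, lists and markers were chosen with earlier results of these data known.

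Counts were summed per library and class (at least 10 cells in every library) and tested with edgeR 4.0.16 (filterByExpr, TMM, quasi-likelihood test, two-sided, Benjamini-Hochberg adjustment over all genes tested, threshold 0.05) in R 4.3.3 with limma 3.58.1. DESeq2 1.42.0 was an alternative. Scripts were tested on simulated data. Each library's value is given for 13 members set by the naming rule (Hspa1a, Hspa1b, Dnajb1, Hsph1, Hsp90aa1, Hsp90ab1, Hspa8, Hspa5, Hspd1, Hspe1, Hspb1, Cryab and Bag3) and for any member past the threshold. Depth was 27297599 to 30361474 UMIs a library, and the number of cells per class limits the precision.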

Additional observations from a re-analysis of the deposited data

Results flagged for a closer look

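Barcodes that passed as cells and joined no marker-gated class entered no comparison. In them the summed CPM of 4 families was higher in both CSD libraries than in both HC libraries. The HSP70 and HSP110 genes summed to 2312 and 2596 against 1956 and 1799 CPM, a ratio of means of 1.31, and the small heat shock proteins to 1095 and 1194 against 749 and 972, a ratio of 1.33. The HSP40 genes summed to 1496 and 1209 against 1142 and 1019 CPM (ratio 1.25) and the mitochondrial genes to 669 and 626 against 546 and 595 (ratio 1.14). The other 4 families overlapped. These sums are without TMM factors. The share of all genes with that order in these barcodes was not counted, so the result is not read as a trait of the families. These barcodes may hold several cell types.

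For 7 members both CSD libraries lay above both HC libraries in 1 class and below them in another, and the difference between the classes was not tested. The share of all genes with such opposite orders was not counted, so the 7 are not read as a trait of the members. Hspa4 had a log2 fold change of 1.20 in ependymal cells and -0.95 in pericytes. Fkbp4 had 0.40 in microglia and -0.47 in pericytes, and Dnaja2 had 0.71 in astrocytes and -0.92 in pericytes. Dnajb2 had 1.12 in arterial smooth muscle cells and -0.81 in ependymal cells, and Dnajb6 had 0.28 in pericytes and -0.44 in ependymal cells. Bag3 had 0.93 in choroid plexus cells and -0.24 in arterial smooth muscle cells. Cryab had 0.75 in ependymal cells and -0.92 in microglia, where it was below its free-RNA level. None of these values passed the threshold.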

How the results depend on the processing

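With 2 libraries a group, leaving out 1 library moved several counts, and the causes were not tested. The number of members past the threshold was 0 to 16 in EC (0 with all libraries), 0 to 0 in microglia and 0 to 5 in choroid plexus cells (2 with all), beside at most 3.93%, 0.0872% and 0.502% of genes. A group left with 1 library is assumed to vary like the other. The number with a log2 fold change above 0 was 22 to 37 in EC, 18 to 33 in microglia and 28 to 34 in choroid plexus cells. DESeq2 called 2 members in EC (1.46% of genes) and 1 in choroid plexus cells (0.0443%). With no filter on low counts, which tests more genes, edgeR called 7 in EC (0.871%), 1 (Hsph1) in microglia (0.165%) and 0 in choroid plexus cells (0%), and a stricter marker gate left 1 in choroid plexus cells (0.0992%). Between classes, DESeq2 called 7 members higher in EC (27.1%) and 10 in microglia (30.1%) and 5 lower in choroid plexus cells (41.3%), where no filter left 1 (8.26%) and leaving out a library 1 to 3 (16.3% to 19.2%).

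Log2 fold changes that turned when 1 library was left out had these ranges. In EC they were -0.077 to 0.63 for Hspa5, -0.083 to 0.63 for Hspd1, -0.33 to 0.21 for Hspe1 (0.056 with at most 10% mitochondrial UMIs, also turned) and -1.24 to 0.18 for Cryab. In microglia they were -0.24 to 0.51 for Hsp90aa1, -0.23 to 0.50 for Hsp90ab1, -0.30 to 0.67 for Hspa5 and -0.42 to 0.62 for Bag3. In choroid plexus cells they were -0.053 to 0.36 for Hsp90ab1 and -0.0072 to 0.22 for Cryab. The level of Bag3 in choroid plexus cells ranged from -0.69 to 0.053, and that of Hsp90aa1 in pericytes was 0.042 under the stricter gate. In the other alternatives 343 log2 fold changes of named members kept their direction and side of the threshold, 14 newly passed it, 6 no longer passed it and 1 changed sign. Ependymal cells could not be fitted under the stricter gate.

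The replicate numbers do not pair the libraries in the labels, and deviations of same-numbered libraries correlated at 0.030 in EC, 0.35 in microglia and 0.14 in choroid plexus cells, over 2 pairs. With a replicate block, 0 members were called in EC (0.692% of genes), 0 in microglia (0.0199%) and 5 in choroid plexus cells (0.239%) (Hsph1, Chordc1, Ahsa2, Hspa1b and Hspa1a).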

Other observations

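Small classes held too few cells for a test. Pooled over libraries, Hspb1 was at 1657 CPM in fibroblasts and Hspa5 at 2229 CPM in border-associated macrophages. Hspa1a was at 377 CPM in oligodendrocytes and 369 in fibroblasts, and had 0 UMIs in oligodendrocyte precursor cells (0 of 95356 UMIs) and neurons (0 of 47928).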
